A study of Danio rerio with 30 samples.

Results

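The genes described here are 48 zebrafish genes that copy DNA and drive mitosis, chosen by name from the standard cell cycle machinery; the rule uses no measured value, although the choice was made with earlier results of these data known. Their names were looked up, letter for letter, in each of the 3 deposited sets of gene values. The triplicate values list 44 of the 48 among 14648 rows. The preliminary values at 21 hpf (hours post fertilization) list the same number among as many rows, and the preliminary values at 18 hpf list 43 among 31874. *bub1bb* is in none of the sets, *bub1*, *cdt1* and *tpx2* are missing from the triplicate and the preliminary 21 hpf values, and *bub1*, *cdc6*, *lig1* and *mki67* stand in capitals in the preliminary 18 hpf values and were not counted there. This left 41 genes listed in all 3 sets.

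Before each division a cell loads the Mcm2-7 helicase on its origins, with Cdc6 and Cdt1 as loaders and geminin (*gmnn*) as the inhibitor of Cdt1, and then turns it on with Cdc45 and the GINS complex. DNA polymerases, the sliding clamp PCNA, the single-strand binding protein RPA and ligase copy the strands from nucleotides made by ribonucleotide reductase and thymidylate synthase. Cyclin-dependent kinase 1 with B-type cyclins, the Aurora and Polo kinases and the spindle checkpoint then carry the cell through mitosis. Transcripts of such genes are used as markers of dividing cells.

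All embryos were of the \*AB strain. Wildtype embryos were compared with embryos injected as single cells with morpholinos, synthetic antisense molecules that block 1 transcript, for Tbx5a, for Tbx5b, or for both T-box transcription factors (double-deficient). The triplicate experiment had these 4 conditions at 18 and 21 hpf, 8 groups of 3 libraries each, 24 libraries in all, and the eyes had been removed from these embryos. The preliminary experiment left the eyes in place and had a single library per condition and stage, 6 in all, without a double-deficient condition. Each of the 30 libraries came from 10 pooled embryos, so values are averages over whole bodies in which Tbx5 is made by few cells, and fewer dividing cells cannot be told apart from less RNA per dividing cell. No control injection for the wildtype embryos is described, so effects of injection and of the loss of Tbx5 cannot be told apart.

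Values were FPKM, counts of sequenced fragments scaled to transcript length and to the fragments mapped in a library. They let levels of different genes be set side by side within a set of values. Ratios between genes differed between the sets, as given below, so they are not taken as relative numbers of transcripts. Each came with a lower and an upper bound set by the authors' program, at a level not given with the values. The 3 libraries of a triplicate group had been combined into 1 value before deposit, and the preliminary groups are single libraries, so no p-value could be computed. A gene was called only when the groups differed at least 2-fold on log2(FPKM + 1) and their bounds did not overlap. The typical upper bound of a replication or mitosis gene lay 43.0% to 44.5% above its value in the triplicate groups, so that bounds came apart only at differences of about 2.51-fold to 2.60-fold. In the preliminary libraries it lay 26.2% to 29.6% above, for 1.71-fold to 1.84-fold. Read totals of single libraries were not used; from the steps between low values, the preliminary libraries held 0.943 to 1.22 times the reads of their wildtype library.

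The targeted genes did not follow every label. In the preliminary experiment *tbx5a* was at 1.11 FPKM in wildtype embryos at 18 hpf, at 1.01 under the Tbx5a label and at 5.30 under the Tbx5b label. The values at 21 hpf were 2.51, 16.1 and 3.88 FPKM in the same order, highest in the library labelled as deficient in it. *tbx5b* was at 0.325, 0.241 and 0.478 FPKM at 18 hpf and at 1.39, 1.68 and 2.45 at 21 hpf, highest under its own label at both stages. A morpholino can act on translation and leave the transcript in place, so these values check the labels only in part, and the preliminary libraries are called by their labels. In the triplicate groups *tbx5a* lay between 0.98 and 1.90 FPKM and *tbx5b* between 0.070 and 0.229, and for neither were the bounds of any pair of groups apart. Skeletal muscle markers, 18 genes of differentiating somites, marked the later stage in every triplicate condition, with a median log2 ratio of 21 against 18 hpf of 1.17 in wildtype embryos, 1.57 with the Tbx5a morpholino, 1.90 with that for Tbx5b and 2.09 with both. Of 16 eye markers 7 to 14 reached 1 FPKM in the triplicate groups although the eyes had been removed, and their summed level was 40.4 to 68.5 FPKM, against 103 to 522 in the preliminary libraries.

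Replication and mitosis genes were well expressed in every triplicate group. In wildtype embryos at 18 hpf of the triplicate experiment they ranged from 8.47 FPKM for *pole*, the catalytic subunit of the leading-strand polymerase, to 1141 for *pcna*. Their median was 68.3 FPKM there and 63.7 to 77.1 over the 8 groups, against 5.47 to 5.91 for all genes listed. Together they made up 0.427% to 0.506% of all FPKM in the triplicate groups and 0.453% to 0.638% in the preliminary libraries. The preliminary values at 18 hpf list *mcm2* at 0 and lack *cdc6*, *lig1* and *mki67* under these names. The shares of the preliminary stages therefore do not cover the same members.

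Their median spread over the groups was close to that of other genes. Over the 8 triplicate groups the highest value of a gene was a median of 1.40 times its lowest, from 1.15 for *kif23*, a kinesin of cytokinesis, to 2.16 for *mcm7*. No member had bounds apart in any of the 28 pairs of groups, where 1.25% of all genes with at least 5 FPKM in every group had them apart in at least 1 pair. *mcm7* was the 1 gene of the 44 whose range passed 2-fold, and 33 stayed under 1.5-fold. Among all 7020 genes with at least 5 FPKM in every group the median was 1.44, 7.56% passed 2-fold and 4181 stayed under 1.5-fold. Of the members 17 were highest in wildtype embryos at 21 hpf, where 25.7% of these genes were, 10 in double-deficient embryos at 18 hpf (17.4%) and none in double-deficient embryos at 21 hpf (5.44%). The lowest value lay in Tbx5b-deficient embryos at 18 hpf for 14 members (16.2% of these genes), in double-deficient embryos at 18 hpf for 10 (15.5%) and at 21 hpf for 9 (16.8%). The summed FPKM of all genes was also highest in wildtype embryos at 21 hpf and lowest in Tbx5b-deficient embryos at 18 hpf.

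**Figure D1:**
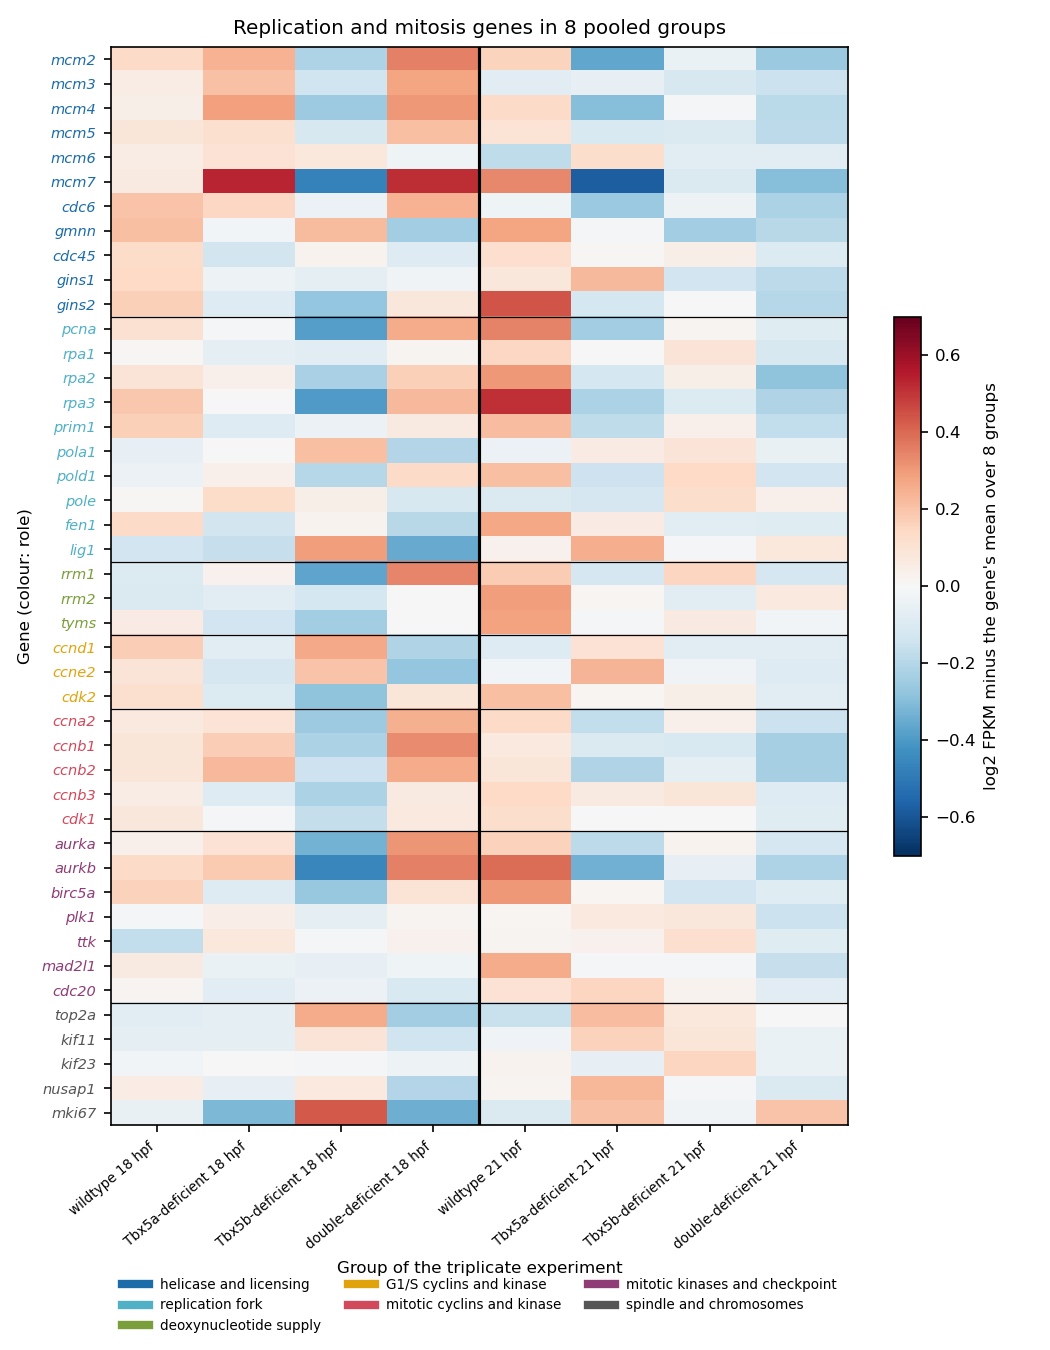
Heat map of 44 replication and mitosis genes (vertical axis, coloured by role) in the 8 groups of the triplicate experiment (horizontal axis), as log2 FPKM minus the mean of that gene over the groups. Each cell is 1 pooled value; mcm7 spans the widest range and mki67 is high in Tbx5b-deficient embryos at 18 hpf, where pcna, rpa3 and aurkb are low.

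In what follows the 4 values of a stage are always given in 1 order: wildtype, Tbx5a-deficient, Tbx5b-deficient, double-deficient. Among the helicase and licensing genes, *mcm7*, a subunit of the Mcm2-7 ring, had the highest wildtype level and the largest shift. Its FPKM was 195, 270, 134 and 268 at 18 hpf and 235, 125, 174 and 152 at 21 hpf. Both conditions that lacked Tbx5a were high at 18 hpf and low at 21 hpf, with log2 ratios between stages of -1.11 and -0.81. The *mcm7* locus (chromosome 14, 150202 to 158517, on loci whose build is not named with the values) also holds 3 microRNA genes, *mir25*, *mir93* and *mir19d*.

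The ring is built from 1 copy of each of 6 subunits, but the values of their transcripts differed. The highest of the 6 exceeded the lowest by 1.47-fold to 2.92-fold over the triplicate groups. Their bounds were apart only in double-deficient embryos at 18 hpf, for *mcm7* (139 to 397) and *mcm6* (49.9 to 133). In wildtype embryos at 18 hpf the bounds of *mcm7* (102 to 289) and *mcm6* (54.3 to 140) overlapped. *mcm6* was the lowest of the 6 subunits in 6 of the 8 groups, and lay between 82.6 and 101.8 FPKM. The ratio of *mcm7* to *mcm6* was 2.01, 2.69, 1.36 and 2.92 at 18 hpf and 2.85, 1.23, 1.96 and 1.71 at 21 hpf. *mcm2*, *mcm4*, *mcm5* and *mcm7* had their 4 highest values in the same groups, and *mcm3* did not.

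Of the genes that turn the helicase on, *gins2* was the member of its role with the highest mean log2 ratio between stages, at 0.06. Its FPKM was 48.3, 40.5, 35.7 and 45.6 at 18 hpf and 58.6, 39.6, 43.1 and 37.5 at 21 hpf, highest in wildtype embryos at both stages. *gins1*, its partner in the complex, lay at 27.9, 24.7, 24.2 and 24.9 FPKM at 18 hpf and at 26.8, 29.7, 23.1 and 22.4 at 21 hpf. Its range here was narrow, and its values in the preliminary libraries are given further on. *cdc6* was between 33.9 and 48.1 FPKM, *gmnn* between 43.1 and 61.6 and *cdc45* between 18.7 and 22.3.

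At the replication fork *pcna* led by a wide margin. At 18 hpf its FPKM was 1141 (bounds 454 to 1827), 1049, 812 and 1269. The later stage gave 1348 (bounds 501 to 2195), 898, 1075 and 1001. Wildtype embryos at 21 hpf were highest and Tbx5b-deficient embryos at 18 hpf lowest. *rpa3*, the small RPA subunit, followed the same groups, from 196 FPKM in Tbx5b-deficient embryos at 18 hpf to 368 in wildtype embryos at 21 hpf. The large subunit *rpa1* stayed between 123 and 147 FPKM, so that the ratio of *rpa3* to *rpa1* ran from 1.56 to 2.51. In the preliminary libraries this ratio was 0.985 to 1.09.

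*lig1*, which joins the pieces of the lagging strand, was at 18 hpf highest where *pcna* was lowest and lowest where *pcna* was highest. It was at 37.4, 36.6, 50.2 and 32.1 FPKM at this stage and at 41.9, 49.0, 40.8 and 43.1 at 21 hpf. It had the highest mean log2 ratio between stages of all 44 genes, 0.17. *prim1*, a subunit of the primase that starts each strand, was lowest of this role by the same measure, at -0.05. Its FPKM was 63.1, 52.8, 54.5 and 58.6 at 18 hpf and 65.2, 49.7, 57.6 and 49.8 at 21 hpf, highest in wildtype embryos at both stages. The polymerase subunits *pola1* (16.0 to 21.3 FPKM), *pold1* (26.3 to 35.0) and *pole* (7.75 to 9.20) were the low end of the role.

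For deoxynucleotide supply, *rrm1*, the large subunit of ribonucleotide reductase, was at 177, 193, 147 and 240 FPKM at 18 hpf. The values at 21 hpf were 214, 174, 210 and 174 FPKM, with no order of conditions shared by the stages. The small subunit *rrm2* was lower, 52.4 to 69.7 FPKM, and the ratio of *rrm1* to *rrm2* was 2.80 to 4.19. In the preliminary libraries this ratio was 4.42 to 5.05 at 21 hpf and 4.76 to 6.40 at 18 hpf. At 18 hpf the name *rrm2* stood on chromosome 20 rather than 19, so it may not mark the same locus. *tyms*, thymidylate synthase, was at 54.4, 47.5, 44.0 and 52.3 FPKM at 18 hpf and at 63.5, 51.9, 54.5 and 51.4 at 21 hpf. It was highest in wildtype embryos at both stages.

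Of the cyclins and the kinase of entry into S phase, *ccnd1* (cyclin D1) was at 118, 99.3, 126 and 90.6 FPKM at 18 hpf. By 21 hpf the range was narrower, at 98.8, 113, 99.6 and 99.7 FPKM. *ccne2* (cyclin E2), at 24.3 to 34.5 FPKM, was high and low in the same groups as *ccnd1* at 18 hpf. *cdk2*, the kinase partner of cyclin E, was at 55.4, 48.0, 42.3 and 54.4 FPKM at 18 hpf and at 59.5, 51.8, 52.9 and 48.6 at 21 hpf, highest in wildtype embryos at each stage.

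Of the mitotic cyclins, *ccnb1* (cyclin B1) led, with 178, 189, 144 and 211 FPKM at 18 hpf and 176, 157, 156 and 143 at 21 hpf. *ccnb2* held the same order of groups at 18 hpf but was 7.81 to 8.86 times lower, from 17.4 to 24.4 FPKM. It had the lowest mean log2 ratio between stages of the role, -0.20. In the preliminary libraries *ccnb2* was 16.2 to 19.5 times lower than *ccnb1* at 18 hpf and 8.20 to 10.1 times at 21 hpf. *ccnb3* lay at 40.1, 36.3, 33.1 and 40.4 FPKM at 18 hpf and at 42.5, 40.3, 41.0 and 36.3 at 21 hpf. *cdk1*, the kinase of all these cyclins, stayed between 136 and 166 FPKM.

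Among mitotic kinases and checkpoint genes *mad2l1*, which holds cells until all chromosomes are attached, had the highest wildtype level. It was at 151, 140, 139 and 141 FPKM at 18 hpf and at 173, 143, 143 and 129 at 21 hpf. *aurkb*, the kinase of the chromosomal passenger complex, varied most. Its FPKM was 136, 140, 90.1 and 158 at 18 hpf and 162, 97.7, 119 and 106 at 21 hpf, low in Tbx5b-deficient embryos at the earlier stage and in all 3 deficient groups at the later one. *cdc20*, which starts the exit from mitosis and is the target of the checkpoint, lay at 70.9, 66.5, 68.0 and 65.0 FPKM at 18 hpf and at 75.1, 77.7, 71.0 and 66.1 at 21 hpf. *plk1*, the Polo kinase, was at 107 to 125 FPKM.

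Among spindle and chromosome genes *mki67*, whose product Ki-67 coats mitotic chromosomes and is the common marker of dividing cells, was at 76.3, 63.5, 106 and 62.4 FPKM at 18 hpf and at 73.7, 91.2, 77.7 and 90.8 at 21 hpf. At 18 hpf it was highest in Tbx5b-deficient embryos, where *pcna*, *mcm7* and *aurkb* were lowest, and at 21 hpf it was lowest in wildtype embryos, where they were highest. *top2a*, the topoisomerase that untangles sister chromosomes, lay between 45.4 and 64.4 FPKM and was also highest at 18 hpf in Tbx5b-deficient and lowest in double-deficient embryos. *nusap1*, a spindle-binding protein, had the highest wildtype level of this role, at 86.3, 80.1, 87.2 and 72.4 FPKM at 18 hpf and 84.5, 97.8, 82.9 and 77.7 at 21 hpf. *kif23* was nearly flat, between 29.6 and 34.1 FPKM. The ratio of *pcna* to *mki67*, both used as markers of proliferation, ran from 7.63 in Tbx5b-deficient to 20.3 in double-deficient embryos at 18 hpf. In the preliminary libraries at 21 hpf it was 3.84 to 4.77.

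**Figure D2:**
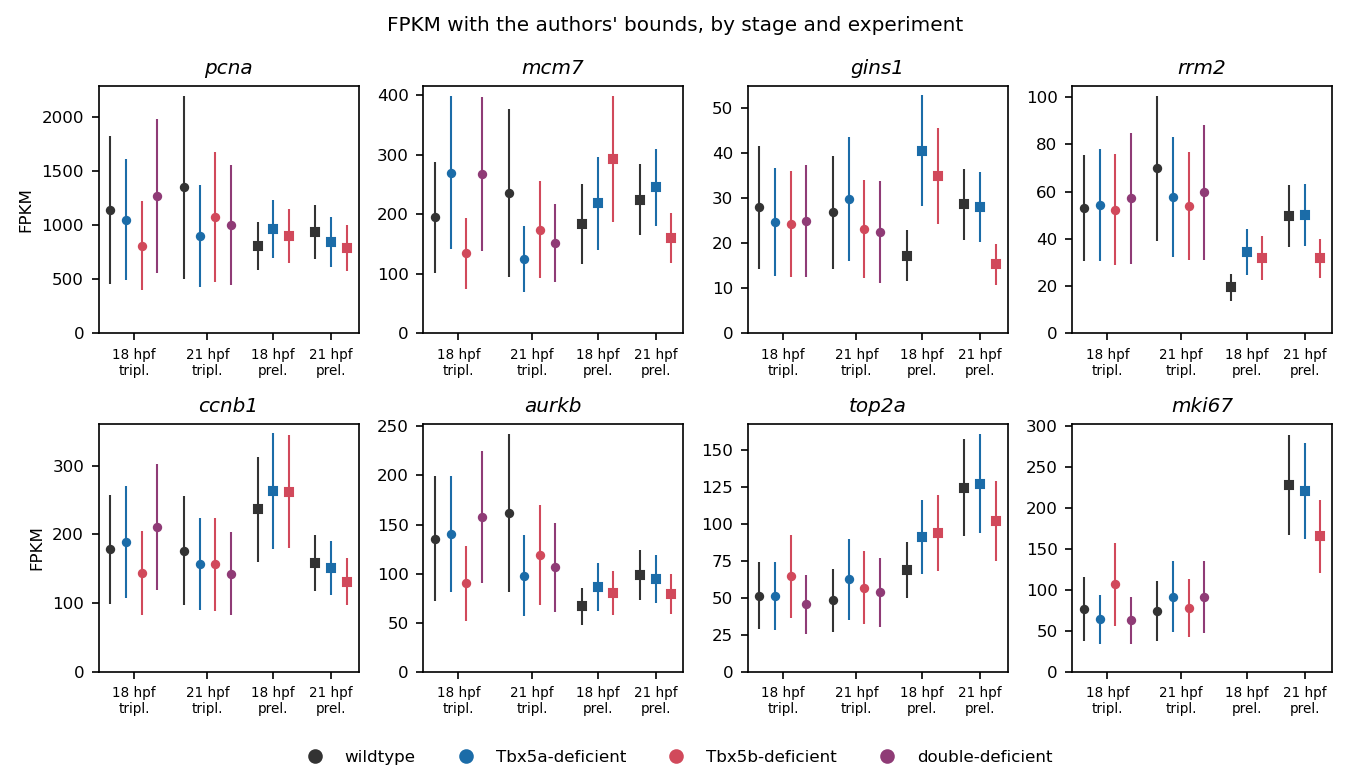
FPKM (vertical axes, from 0) of 8 replication and mitosis genes in every group, by stage and experiment, with the bounds given by the authors; circles are pooled triplicate groups and squares single preliminary libraries. Triplicate bounds overlap for each gene shown, while gins1 in the preliminary libraries goes from 17.2 FPKM in wildtype to 40.5 and 34.9 at 18 hpf and from 28.6 to 15.3 with the Tbx5b label at 21 hpf (mki67 is not listed under this name at 18 hpf in the preliminary values). The name rrm2 stands on chromosome 20 in the preliminary values at 18 hpf and on chromosome 19 in the others.

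For *mcm7*, *aurkb* and *mki67* this opposition went with the total of all values. *pcna* followed the total less closely, with 1075 FPKM in Tbx5b-deficient embryos at 21 hpf and 1049 in Tbx5a-deficient embryos at 18 hpf. The summed FPKM over all genes was 1293231 in wildtype embryos at 21 hpf, 1164864 in double-deficient, 1073539 in wildtype and 1057138 in Tbx5a-deficient embryos at 18 hpf, and 859057 to 968416 in the other 4 groups. The 11 members *mcm2*, *mcm4*, *mcm5*, *mcm7*, *cdc6*, *rpa3*, *ccna2*, *ccnb1*, *ccnb2*, *aurka* and *aurkb*, 25.0% of the 44, had their 4 highest values in the 4 groups of highest sum. *top2a* and *mki67*, 4.55% of the 44, had their 4 lowest values there. Of all genes with at least 5 FPKM in every group 17.3% did the former and 2.22% the latter. The part of the summed level in these genes' differences was not tested.

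The comparison of stages asks whether the transcripts of dividing cells changed over 3 hours of somite formation. No replication or mitosis gene was called in any of the 4 conditions. Of all genes kept, 0.578%, 1.06%, 0.773% and 1.37% were called, in the order of conditions used above. The median log2 ratio of the 44 genes was 0.06, 0.02, 0.10 and -0.15, where all genes had 0.01, -0.01, -0.03 and -0.01. Above the median of all genes stood 30, 23, 33 and 14 of the 44, against 50.0% of all genes. Double-deficient embryos were the 1 condition with more members below that median than above it, and the difference between conditions was not tested. Members and all genes were also limited to at least 50 FPKM, a limit chosen after seeing the data. The members' median minus that of the genes was then -0.055, 0.15, 0.013 and 0.045. Fewer members were compared in this way, and the sign turned in wildtype and double-deficient embryos.

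With FPKM scaled to an equal sum in every group the split turned in most conditions, since that moved the median of all genes by up to 0.26 on the log2 scale in these 4 contrasts. In wildtype embryos 32 members were higher and 12 lower at 21 hpf as deposited, where 51.6% of all genes were higher, but 5 and 39 when scaled, where 78.6% of all genes were lower. With the Tbx5a morpholino the numbers were 23 and 21 (49.2% of all genes higher), but 37 and 7 when scaled (73.6% higher). With that for Tbx5b they were 32 and 12 (46.1% of all genes higher), but 14 and 30 when scaled (73.5% lower), and in double-deficient embryos 13 and 31 (48.6% of all genes higher), but 29 and 15 when scaled (78.0% higher). Positions relative to the median of all genes did not depend on the sum, and so these are the positions given above.

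Few members moved one way in every condition. *rrm2* and *cdc20* were higher at 21 hpf in all 4 conditions, 2 of the 44, where 15.7% of all genes were. No member was lower in all 4, where 14.7% of all genes were. No member had its 4 values of one stage all above those of the other, where 10.5% of all genes stood higher and 7.48% lower at 21 hpf in this way. Scaled to an equal sum, *cdc6*, *mcm2* and *ccnb2* were lower in all 4 conditions, *gins2* was higher in all 4, and *cdc6* and *mcm2* had all 4 values at 21 hpf below those at 18 hpf. Of all genes so scaled 9.40% were lower and 11.3% higher in all 4, and 4.38% had the later stage wholly below and 5.98% wholly above the earlier one. The conditions split over *mcm7*, with ratios of 0.27, -1.11, 0.37 and -0.81, and over *mki67* in the opposite sense, with -0.05, 0.52, -0.45 and 0.53.

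By role, the mitotic cyclins and *cdk1* had median log2 ratios of 0.05, -0.26, 0.16 and -0.39 in the 4 conditions, and helicase and licensing genes 0.01, -0.22, 0.01 and -0.39. Spindle and chromosome genes had -0.03, 0.28, -0.07 and 0.10. Of these roles, the helicase and licensing genes and the mitotic cyclins had their median below 0 in Tbx5a-deficient embryos, and the spindle and chromosome genes above it. Members of at least 100 FPKM had a median of -0.22 in this contrast and those under 100 FPKM 0.10. All genes of at least 5 FPKM had -0.18 and -0.03 at these levels. The part of level in the role medians was not tested.

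**Figure D3:**
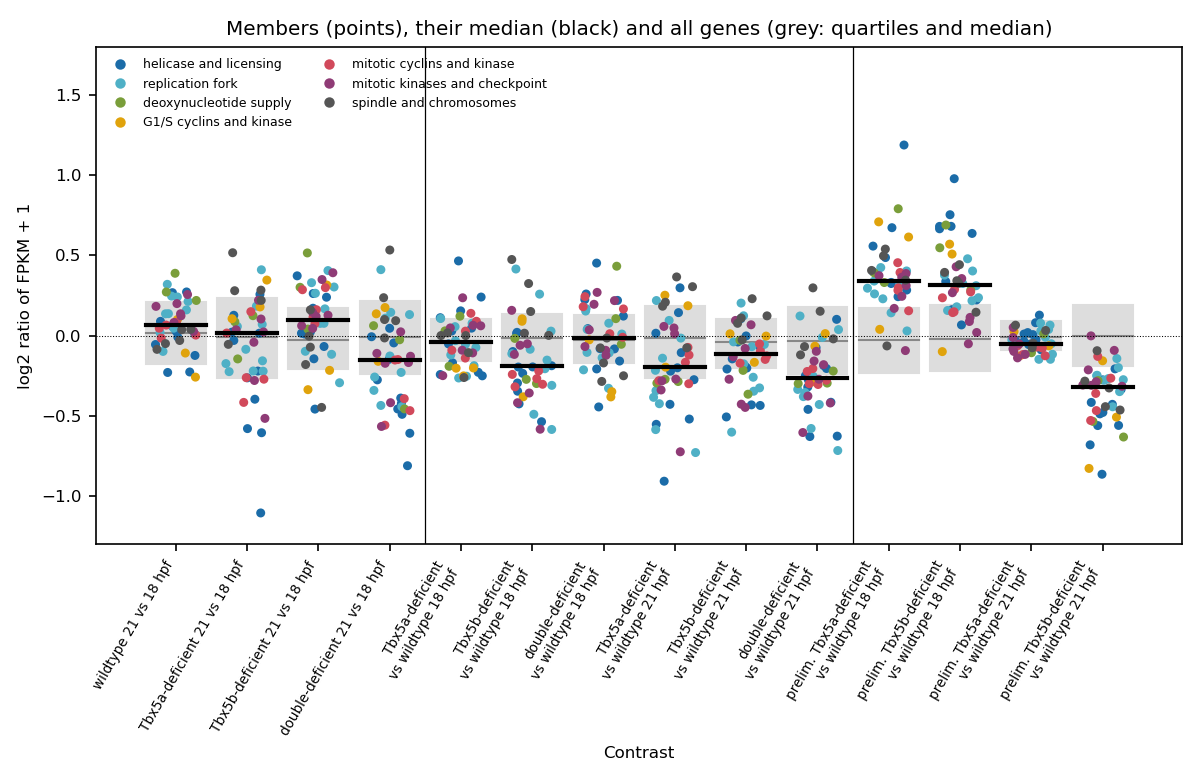
log2 ratio of FPKM + 1 (vertical axis) of each replication and mitosis gene (points, coloured by role) in 14 contrasts (horizontal axis): 4 between stages, 6 of deficient against wildtype embryos among the triplicate groups and 4 among the preliminary libraries. Black lines are the members' medians, grey boxes and lines the quartiles and medians of all genes kept; in the preliminary libraries the members' medians are 0.34, 0.32, -0.05 and -0.32.

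Deficient groups were then set against wildtype embryos of the same age, to ask whether loss of either Tbx5 protein or of both changed these genes. The 3 contrasts of a stage share that wildtype group. In the triplicate experiment no member was called in any of the 6 contrasts. Of all genes 0.255%, 0.254% and 0.237% were called at 18 hpf, for the loss of Tbx5a, of Tbx5b and of both, and 0.298%, 0.224% and 0.277% at 21 hpf.

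At 18 hpf the members' median log2 ratio to wildtype was -0.04, -0.19 and -0.01 in this order, with -0.04, -0.01 and -0.03 for all genes. Below the median of all genes stood 22, 31 and 21 of the 44, against 50.0%. The lowest ratios in Tbx5b-deficient embryos were those of *rpa3* (-0.59), *aurkb* (-0.58) and *mcm7* (-0.54), and the highest those of *mki67* (0.47), *lig1* (0.42) and *top2a* (0.32). Deoxynucleotide supply and the mitotic cyclins with *cdk1* had the lowest role median there, both at -0.27, and spindle and chromosome genes stood at 0.15. In double-deficient embryos the order was turned, with *mcm7* highest at 0.45 and *gmnn* lowest at -0.44. All 3 deficient groups were below wildtype for 11 of the 44 genes, 25.0%, where 21.4% of all genes were, and above it for *ttk* alone, where 14.0% were.

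The median at 21 hpf was -0.20, -0.11 and -0.26, with -0.02, -0.04 and -0.03 for all genes. Below the median of all genes stood 29, 30 and 36 of the 44, against 50.0%. All 3 deficient groups were below wildtype for 28 of the 44, where 38.0% of all genes were, among them *pcna*, *rpa1*, *rpa2*, *rpa3*, *mcm2*, *mcm4*, *mcm5*, *mcm7*, *ccnb1*, *cdk1* and *aurkb*. All 3 were above it for *top2a*, *mki67*, *mcm6* and *ccnd1*, where 28.2% of all genes were. The 3 lowest ratios were those of *mcm7* (-0.91), *rpa3* (-0.73) and *aurkb* (-0.72) with the Tbx5a morpholino, of *rpa3* (-0.60), *gmnn* (-0.51) and *aurkb* (-0.45) with that for Tbx5b, and of *rpa3* (-0.72), *gins2* (-0.63) and *mcm7* (-0.63) with both. The 3 periderm markers compared were lower in the same groups, with medians of -0.79, -0.56 and -0.67, and the 5 blood markers had medians of -0.39, -0.22 and -0.16. Medians above 0 were those of skeletal muscle (0.01, 0.21 and 0.57), eye (0.35, 0.55 and 0.25) and neuron markers (0.20, 0.14 and 0.08). Yolk syncytial layer markers, of which 2 of the 4 listed reached 1 FPKM, summed to 6510 FPKM in wildtype embryos and to 4765, 5273 and 5547 in the deficient groups. These sums are not scaled, and the sum over all genes was likewise highest in wildtype embryos (1293231, against 874236, 968416 and 948270). The part of these markers in the members' ratios was not tested. 

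These splits also depended on the sum. At 18 hpf 21 members were higher and 23 lower in Tbx5a-deficient embryos with or without scaling to an equal sum, where as deposited 57.8% of all genes were lower. In Tbx5b-deficient embryos 13 were higher and 31 lower (52.4% of all genes lower), which became 34 and 10 when scaled (87.0% higher). The double-deficient group had 21 and 23 (54.6% of all genes lower), which became 14 and 30 (70.9% lower). At 21 hpf 14 and 30 became 40 and 4 with the Tbx5a morpholino (52.0% of all genes lower as deposited, 89.6% higher when scaled), and 10 and 34 became 38 and 6 with that for Tbx5b (57.5% lower, 90.5% higher). In double-deficient embryos 6 and 38 became 38 and 6 (54.4% lower, 88.8% higher). The scaling moved the median of all genes by up to 0.48, in Tbx5a-deficient embryos at 21 hpf, and positions relative to that median are those already given.

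The differences at 21 hpf went with both the level of a gene and the length of its locus. Across the 44 members the log2 ratio and the log2 level had Pearson's r of -0.41, -0.44 and -0.44 in the 3 contrasts. Across all genes of at least 5 FPKM, which share the same pooled libraries, r was -0.43, -0.45 and -0.44, and genes are not independent replicates. With the log2 length of the locus r was 0.35, 0.63 and 0.46 across members and 0.20, 0.33 and 0.30 across those genes. In double-deficient embryos all genes between 50 and 100 FPKM had a median ratio of -0.21, those between 100 and 200 had -0.27, and those between 1 and 2 had 0.11. With members and genes of at least 50 FPKM, the members' median minus the genes' was 0.028, 0.062 and 0.0078 at 21 hpf. Without that limit, and with all 44 members, it was -0.18, -0.07 and -0.23. In Tbx5b-deficient embryos at 18 hpf it went from -0.18 to -0.015. Among genes under 100 FPKM the members' median was -0.07, -0.05 and -0.19 at 21 hpf and that of all genes -0.03, -0.04 and -0.07, with 26, 27 and 27 members. The part of level and of locus length in the members' ratios was not tested.

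**Figure D4:**
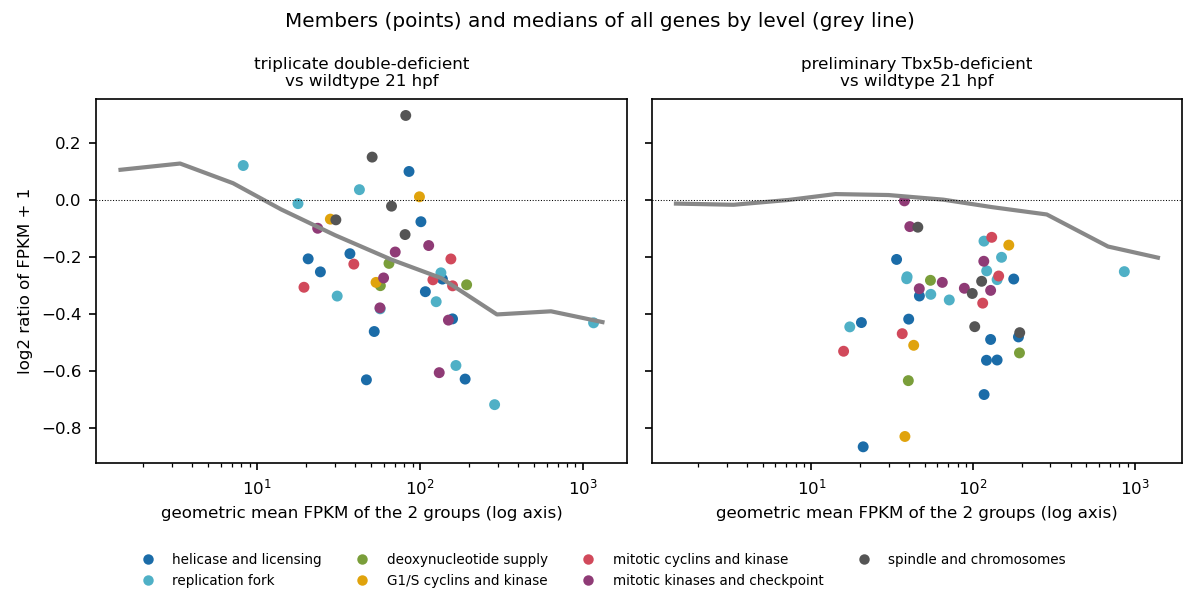
log2 ratio to wildtype of FPKM + 1 (vertical axis) against the geometric mean FPKM of both groups (horizontal log axis) for double-deficient embryos of the triplicate experiment and the preliminary library labelled Tbx5b-deficient, both at 21 hpf. Points are replication and mitosis genes coloured by role, grey lines the medians of all genes by level; the points lie about the line on the left, where its ends are 0.11 and -0.43, and below it on the right, where 44 of 44 ratios are below 0.

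In the preliminary experiment single libraries were compared. At 18 hpf 1 of the members, *mcm2*, was listed at 0 in all 3 libraries, on the scaffold Zv9_NA237. At 21 hpf it stood on chromosome 22, at 196 FPKM in the preliminary wildtype library. This left 42 members compared at 18 hpf. Relative to the shared wildtype library 40 of the 42 were higher in the library labelled Tbx5a-deficient, where 46.1% of all genes were, and 40 were higher in the library labelled Tbx5b-deficient, where 47.2% were. The median log2 ratio was 0.34 (1.27-fold) and 0.32 (1.25-fold), with -0.03 and -0.02 for all genes. Scaled to an equal sum the members higher and lower were 38 and 4, where 37.7% of all genes were higher, and 41 and 1, where 54.5% were. Among members and genes of at least 50 FPKM the members' median stood 0.35 and 0.38 above, close to 0.37 and 0.34 without that limit.

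*gins1*, a subunit of the GINS complex at the fork, was the member called. The wildtype library had it at 17.2 FPKM (bounds 11.5 to 22.9), the Tbx5a label at 40.5 (28.3 to 52.7) and the Tbx5b label at 34.9 (24.2 to 45.6). Its log2 ratio was 1.19 in the former, which was called higher as were 0.560% of all genes, and 0.98 in the latter, just short of 2-fold with bounds apart. No other of the 42 members had bounds apart, where 2.53% of all genes had them apart with the Tbx5a label and 2.69% with the Tbx5b label. Of all genes 1.57% were called with the Tbx5a label and 1.58% with the Tbx5b label. The locus of *gins1* overlaps no other listed locus.

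The next largest ratios in the library labelled Tbx5a-deficient were those of *rrm2* (0.79), which went from 19.5 to 34.5 FPKM, and of *cdk2* (0.71), from 31.0 to 51.4. In the library labelled Tbx5b-deficient they were those of *mcm3* (0.75) and *rrm2* (0.69). *mcm3* was low in these values, 5.70 FPKM in wildtype, and its locus overlaps *il17a/f3* and *stmn4*. Loci of *rrm2* and *cdk2* also overlapped another locus in these values, *SNORD94* and *CU633767.1*. The name *rrm2* stood on chromosome 20 here, but on chromosome 19 in the triplicate and the preliminary 21 hpf values. It may therefore not mark the same locus in all sets. By role the medians were 0.61 and 0.51 for the cyclins and kinase of entry into S phase, 0.39 and 0.65 for helicase and licensing, 0.39 and 0.55 for deoxynucleotide supply, 0.30 and 0.31 for the fork, and 0.31 and 0.11 for mitotic kinases and checkpoint, Tbx5a label before Tbx5b label. The ratios of *ccnd1* were 0.04 and -0.10 and those of *ttk*, a checkpoint kinase, -0.09 and 0.02.

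At 21 hpf the preliminary libraries parted. The library labelled Tbx5a-deficient was close to wildtype, with 14 members higher and 30 lower, where 52.0% of all genes were lower, a median of -0.05 and ratios from -0.15 to 0.13. None was called, where 0.0772% of all genes were. Scaled to an equal sum 20 were higher and 24 lower, where 39.0% of all genes were lower. In the library labelled Tbx5b-deficient all 44 members were lower than in wildtype, where 50.0% of all genes were, with a median log2 ratio of -0.32 (0.80-fold). Scaled, 40 were lower and 4 higher, where 32.6% of all genes were lower. Among members and genes of at least 50 FPKM the members' median stood at -0.29 relative to that of the genes.

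None of the 44 was called in that library, where 1.65% of all genes were, but *gins1* and *ccne2* had bounds apart, as did 4.09% of all genes, a share close to that of the members. *gins1* was at 28.6 FPKM (bounds 20.8 to 36.4) in wildtype, at 28.0 in the library labelled Tbx5a-deficient and at 15.3 (10.8 to 19.7) in the library labelled Tbx5b-deficient, a log2 ratio of -0.86. *ccne2*, the cyclin of entry into S phase, was at 50.8 (37.6 to 64.0), 51.7 and 28.2 (20.7 to 35.6) FPKM, a ratio of -0.83. *mcm3* followed with 148, 142 and 92.0 FPKM and *rrm2* with 49.7, 50.1 and 31.7. By role the medians were -0.54 for deoxynucleotide supply, -0.51 for the cyclins and kinase of entry into S phase and -0.48 for helicase and licensing. They were -0.36 for the mitotic cyclins and *cdk1*, -0.33 for spindle and chromosomes, -0.29 for mitotic kinases and checkpoint, and -0.27 for the fork. *ttk* was at 37.6 FPKM in wildtype and 37.5 with the Tbx5b label.

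**Figure D5:**
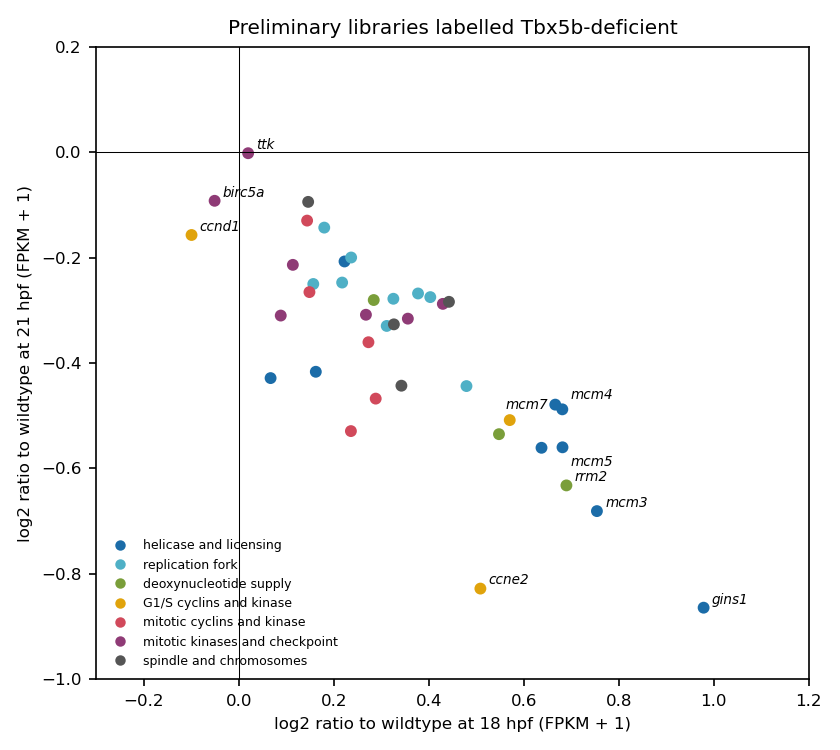
Log2 ratio to wildtype of FPKM + 1 at 18 hpf (horizontal axis) and at 21 hpf (vertical axis) in the preliminary libraries labelled Tbx5b-deficient, 1 library per stage and group, for replication and mitosis genes coloured by role. Of 40 genes compared at both stages 38 lie at the lower right, higher at 18 hpf and lower at 21 hpf (a pattern of 32.6% of all genes, not plotted), with gins1 farthest out at 0.98 and -0.86. The name rrm2 stands on chromosome 20 in the values at 18 hpf and on chromosome 19 in those at 21 hpf.

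Other genes of the same pathways, 143 from lists of origin, fork, nucleotide, kinetochore and cell cycle control genes, of which 119 are in the triplicate values, were compared in the same way. None was called in the triplicate experiment, where 0.224% to 1.37% of all genes were called in a contrast. In the preliminary libraries at 18 hpf 68 were higher and 25 lower in the library labelled Tbx5a-deficient, median 0.18, and 73 and 21 in that labelled Tbx5b-deficient, median 0.18. Of all genes 46.1% and 47.2% were higher in these libraries. At 21 hpf 22 were higher and 96 lower in the library labelled Tbx5b-deficient, median -0.23, where 50.0% of all genes were lower. The called genes included *cdkn1a*, the inhibitor p21 of cyclin-dependent kinases and a target of p53. It was at 51.7 FPKM in the preliminary wildtype library at 18 hpf, 9.09 with the Tbx5a label and 10.5 with the Tbx5b label, log2 ratios of -2.38 and -2.19. At 21 hpf it was at 9.26, 9.88 and 49.8 FPKM, the last a ratio of 2.31. The libraries with high *cdkn1a* were those in which the replication and mitosis genes were low, wildtype at 18 hpf and the Tbx5b label at 21 hpf. Each of these is a single library, and the part of *cdkn1a* in the members' ratios was not tested.

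*rb1*, the retinoblastoma protein that holds back S phase genes, moved against *cdkn1a*. It was at 8.91, 18.9 and 23.9 FPKM at 18 hpf and at 31.3, 34.4 and 14.0 at 21 hpf, in the order wildtype, Tbx5a label, Tbx5b label, called in both libraries at 18 hpf and in the last at 21 hpf. In the 18 hpf values its locus overlaps *lpar6b*. *cdca7a*, an E2F and Myc target in mammals, was at 56.7, 124 and 134 FPKM at 18 hpf, called in both. *dhfr*, dihydrofolate reductase, was called higher (1.03) and *ncapd3*, of condensin, and *cdkn1ba*, a second inhibitor of the kinases, lower (-1.01 and -1.01), all in the library labelled Tbx5a-deficient. In the triplicate groups *cdkn1a* lay between 11.9 and 18.3 FPKM, with no pair of groups whose bounds were apart.

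Markers of other tissues moved in the same preliminary libraries. With the Tbx5b label at 21 hpf the median log2 ratio was -0.52 for eye markers (2 of 15 higher), -0.43 for skeletal muscle (5 of 18 higher), -0.35 for neurons (1 of 11 higher), -0.57 for blood (none of 5 higher) and 0.73 for periderm (3 of 3 higher). In the library with this label at 18 hpf it was 0.48 for eye (10 of 12 higher), 0.54 for neurons (7 of 9 higher), -0.14 for muscle, 0.30 for blood and -0.57 for periderm (none of 2 higher). In the library labelled Tbx5a-deficient at 18 hpf, where the members were as high, it was 0.10 for eye, 0.06 for neurons, 0.03 for muscle, 0.46 for blood and -0.29 for periderm (none of 2 higher). The summed muscle level was 18875 FPKM in wildtype and 14935 with the Tbx5b label at 21 hpf. The part of tissue makeup in the members' differences was not tested.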

How the data were processed

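Whole zebrafish embryos were measured by sequencing of oligo dT cDNA, as single-end reads. The submitters' processing notes name bcl2fastq, TopHat2 2.1.0, Bowtie2 2.2.5.0 and the builds GRCz10 and danRer10, while the study's methods name Zv9. In the preliminary values at 18 hpf some scaffold names carry Zv9, such as Zv9_NA237 for *mcm2*. The triplicate and preliminary 21 hpf values list the members at other positions, shared by both and with no build named. The part of this difference between sets in the values was not tested. The authors computed the deposited FPKM values and their bounds with Cuffdiff, combining the 3 libraries of each triplicate group. The preliminary values at 18 and at 21 hpf were made separately, so ratios were taken only within a set. No value column was left without a group.

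The 48 genes and all lists were chosen with earlier results of these data known. Genes marked OK in both groups with at least 1 FPKM in 1 of them were kept. The log2 ratio used a pseudocount of 1 FPKM, which understates changes of low genes. A call needed an absolute log2 ratio of at least 1 and bounds apart. Medians over members were set beside those of all genes kept. No p-value was computed, since no values of replicate libraries were used. Per role, the genes named with every value are the highest in wildtype embryos at 18 hpf and those with the highest and lowest mean ratio between stages; called genes and the 3 most extreme of a contrast were also named, and other genes for their level or range. The call rule was tested on simulated data whose changes were all larger than any seen here among the members. It does not show how often smaller changes would be called. Alternatives were pseudocounts, filters, fold limits, scaling to a sum of 1000000, loci that overlap no other, and names matched without case. A planned search of promoter motifs was not run. Tools were Python 3.11.15, numpy 2.4.6, pandas 2.3.3 and matplotlib 3.10.9. RefSeq (GRCz12tu), used for names only, matched 47 of the 48. The study gives total reads per experiment, more for the 6 preliminary than for the 24 triplicate libraries, but no depth per library. Precision comes from the bounds, which for a single library do not cover variation between pools of embryos.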

Additional observations from a re-analysis of the deposited data

Results flagged for a closer look

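In the preliminary libraries labelled Tbx5b-deficient, 38 of the 40 replication and mitosis genes compared at both stages were above wildtype at 18 hpf and below it at 21 hpf, as were 32.6% of all genes compared in these libraries. They stand out because the sign differs between stages. The sign at 18 hpf was shared by the library labelled Tbx5a-deficient, with 40 of 42 members above the same wildtype library. The difference between stages was not tested, since each stage has 1 library per group and the values of the stages were made separately. The loci also stand at different positions in the values of each stage. The targeted gene *tbx5a* did not follow every label of the preliminary libraries, so these labels are checked only in part.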

How the results depend on the processing

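Of 178 alternative values for 30 results, 163 stayed within 0.1 on the log2 scale for medians, or 1.5-fold for counts, and 15 did not. A limit of at least 50 FPKM for members and genes alike was chosen after seeing the data. With it the members' median minus that of the genes became -0.055 (wildtype), 0.15 (Tbx5a), 0.013 (Tbx5b) and 0.045 (double-deficient) for 21 against 18 hpf. Against wildtype it became -0.015 for Tbx5b at 18 hpf and 0.028 (Tbx5a), 0.062 (Tbx5b) and 0.0078 (double-deficient) at 21 hpf. The sign thus turned in wildtype and double-deficient embryos between stages and in all 3 contrasts at 21 hpf, and no preliminary median moved by 0.1.

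With bounds not used, *mcm7* was the 1 member called between stages in Tbx5a-deficient embryos. In the preliminary library labelled Tbx5b-deficient, *gins1* made 1 call at 18 hpf with a pseudocount of 0.1, at 1.5-fold or with scaled sums, and at 1.5-fold *gins1* and *ccne2* made 2 at 21 hpf. Scaled sums gave 3 members lower at 21 hpf in all 4 conditions and 2 whose stages did not overlap. No paired analysis was possible because the triplicate values combine the 3 libraries of a group and the preliminary groups hold 1 library each; for the same reason no replicate was left out. Calls are limited by the width of the bounds, and 4 members of the triplicate set lie at loci that overlap another. In the preliminary values 9 of 43 members do so at 18 hpf and 4 of 44 at 21 hpf.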

Other observations

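Wildtype embryos at 21 hpf were measured in both experiments, with eyes in the preliminary and without them in the triplicate one, and the sets were normalized separately, so the values stand side by side only. *mki67* was at 228 FPKM in the preliminary library and at 73.7 in the triplicate group. *top2a* was at 124 and 48.2, *pola1* at 42.9 and 17.9, *pole* at 20.3 and 7.85, and *lig1* at 80.4 and 41.9. *rpa3* was at 160 and 368, *pcna* at 936 and 1348, and *aurkb* at 98.2 and 162.

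Names in capitals in the preliminary values at 18 hpf matched 4 members when case was ignored. MKI67 was at 123 FPKM in wildtype, 191 in the library labelled Tbx5a-deficient and 183 in the library labelled Tbx5b-deficient. CDC6 was at 30.3, 31.3 and 37.2 and BUB1, a kinase of the spindle checkpoint, at 21.5, 18.6 and 24.0. LIG1 was at 50.8 in wildtype and at 74.4 with the Tbx5b label, and its value with the Tbx5a label was not marked OK.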
